A study of Homo sapiens with 4 samples.

Results

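The genes described are 6 genes of pioneer and luminal lineage transcription factors: the forkhead genes FOXA1, FOXA2 and FOXA3, the homeobox gene HOXB13 and the zinc finger genes GATA2 and GATA3. They were chosen as a group by symbol, with earlier results of these data known, although no measured value entered the rule itself. All 6 were found among the 59665 genes of the RefSeq table on the main chromosomes of GRCh38. Chromatin accessibility around them was measured by ATAC-seq, in which a transposase cuts open chromatin, for LNCaP and LNCaP-resistance cells with 2 libraries each. LNCaP is an androgen-sensitive line of human prostate cancer. The LNCaP libraries carry the genotype WT and no treatment entry, and the resistance libraries are labelled as resistance cells under enzalutamide, a hormone-pathway drug of prostate cancer. The labels give no dose or time for the drug, and nothing says whether the resistant line is 1 clone or a pool. Per the labels both lines grew in the same serum-containing medium, whereas the methods of the study describe charcoal-stripped serum during the selection of resistant cells. Each library has 1 list of peak summits with a score, so the lists report where chromatin was called open and not the expression of any gene. Each group holds 2 libraries that the labels number as repeats, and nothing says that they came from separate cultures.

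Pioneer factors bind their DNA motifs on nucleosomes and open the chromatin for other factors. In prostate luminal cells FOXA1 opens enhancers of the luminal programme, while GATA2 and HOXB13 bind many of the same enhancers. FOXA2 and FOXA3 are better known from foregut, liver and pancreas, FOXA2 is also known from neuroendocrine prostate tumours, and GATA3 maintains luminal cells in breast and prostate.

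Between 45618 and 117245 summits were listed per library, with fewer in both resistant libraries, and between 48 and 131 of them lay outside the main chromosomes. Because no read counts are given, the depth is unknown, and a site without a summit was not called and may still be open. Each summit was therefore given a percentile, the percent of summits of its own library with an equal or lower score. Markers were checked by the strongest summit within 3 kb of the gene start. Of 7 prostate luminal markers 6 had one in every library and KLK3 had none in any, while the basal marker KRT5 and the leukocyte marker PTPRC had none. Of all 20037 protein-coding genes, 12968 had one in every library and 3905 had none in any. KRT8 and KRT18 had the same percentiles in all 4 libraries, so 1 site appears to be counted for both luminal markers. Summits were nevertheless present in all 4 libraries at KRT14, CD3E, PECAM1 and COL1A1, genes of basal, T, endothelial and stromal cells. The summed percentile of the 4 blood and stroma genes was 232 and 189 in LNCaP and 172 and 143 in resistant cells, and that of the 7 luminal genes was 500.03 and 467 in LNCaP and 486 and 415 in resistant cells. Their part in the results below was not tested.

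The 250 bases before a gene start are shown for the 3 genes whose starts carried the results, with capitals for a GC box (GGGCGG) or a TATA box (TATAAA) on either strand. They are RefSeq sequences of GRCh38.p14, written 5′ to 3′ along the direction of transcription. The first pair belongs to GATA3, where the change between the cell types was largest among the 6 genes. The next stretch lies before FOXA1, and the last pair covers the start of FOXA3 and that of its neighbour SYMPK, which is transcribed away from it and holds the strongest summit of these loci.
GATA3, first start (chr10:8045083-8045332, plus strand): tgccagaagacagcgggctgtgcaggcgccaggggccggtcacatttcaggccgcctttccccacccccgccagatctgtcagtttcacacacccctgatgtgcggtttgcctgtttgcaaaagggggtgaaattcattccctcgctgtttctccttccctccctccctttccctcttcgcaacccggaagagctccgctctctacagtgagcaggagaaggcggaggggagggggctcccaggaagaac
GATA3, internal start (chr10:8053391-8053640, plus strand): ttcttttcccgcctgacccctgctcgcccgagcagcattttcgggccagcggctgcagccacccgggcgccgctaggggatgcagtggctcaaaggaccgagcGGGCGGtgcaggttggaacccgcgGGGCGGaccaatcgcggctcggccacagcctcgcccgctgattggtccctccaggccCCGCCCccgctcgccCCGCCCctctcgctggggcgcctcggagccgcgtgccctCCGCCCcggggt
FOXA1 (chr14:37595250-37595499, minus strand): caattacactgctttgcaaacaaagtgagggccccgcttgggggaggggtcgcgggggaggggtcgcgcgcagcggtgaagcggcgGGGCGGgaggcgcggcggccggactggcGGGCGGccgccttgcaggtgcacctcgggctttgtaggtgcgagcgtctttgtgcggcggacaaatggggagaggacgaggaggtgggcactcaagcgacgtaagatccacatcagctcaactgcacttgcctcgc
SYMPK (chr19:45863148-45863397, minus strand): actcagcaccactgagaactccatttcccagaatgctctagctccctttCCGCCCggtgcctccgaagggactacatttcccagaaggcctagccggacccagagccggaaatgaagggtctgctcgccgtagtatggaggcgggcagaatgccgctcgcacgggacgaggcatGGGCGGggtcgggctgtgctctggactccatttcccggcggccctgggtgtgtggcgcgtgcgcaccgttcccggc
FOXA3 (chr19:45864076-45864325, plus strand): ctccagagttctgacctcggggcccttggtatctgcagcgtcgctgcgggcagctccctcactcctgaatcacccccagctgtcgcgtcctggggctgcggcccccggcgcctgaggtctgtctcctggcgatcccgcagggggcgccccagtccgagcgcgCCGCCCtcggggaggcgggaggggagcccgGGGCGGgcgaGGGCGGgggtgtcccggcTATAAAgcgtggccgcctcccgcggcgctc
The stretch before the first GATA3 start held neither box, and the internal start held 5 GC boxes. FOXA3 had a TATA box near its start, and its own 250 bases held no summit of any library, whereas the stretch before SYMPK held a summit of each of the 4. Over 35116 promoters of this length, 42.6% held a GC box and 10.7% a TATA box. None of the 10 promoters that the table gives for FOXA1, FOXA3, GATA2 and GATA3 held a forkhead match, which was searched as TGTTTAC and its common variant form TATTTAC and was found in 5.27% of all promoters. The same was true of a GATA match (AGATAA and also the related letters TGATAA, 14.6% of all promoters). The HOXB13 match CCAATAAA, found in 0.863% of all promoters, did not occur in them either. FOXA2 and HOXB13 are named only.

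Within the gene body and 50 kb on either side, the 6 loci held 49 and 50 summits in LNCaP and 39 and 27 in resistant cells. Summits widened by 250 bp on either side and merged across libraries gave 59 regions there, of 150917 in all. LNCaP-only regions, called in both LNCaP libraries but in no resistant one, numbered 14 of 59, or 23.7%, beside 27.5% of all regions. The reverse pattern was met in 2 regions, or 3.39%, beside 3.84% of all regions. A summit in all 4 libraries was found in 20 regions, or 33.9%, beside 21.1%, and the remaining 23 had other patterns. The loci are richer in gene ends than the genome, and 24 of their regions lay within 3 kb of an end of a protein-coding gene. Near such ends 45.8% of the regions of these loci and 43.5% of all regions were shared, and away from them 25.7% and 15.9% were.

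**Figure D1:**
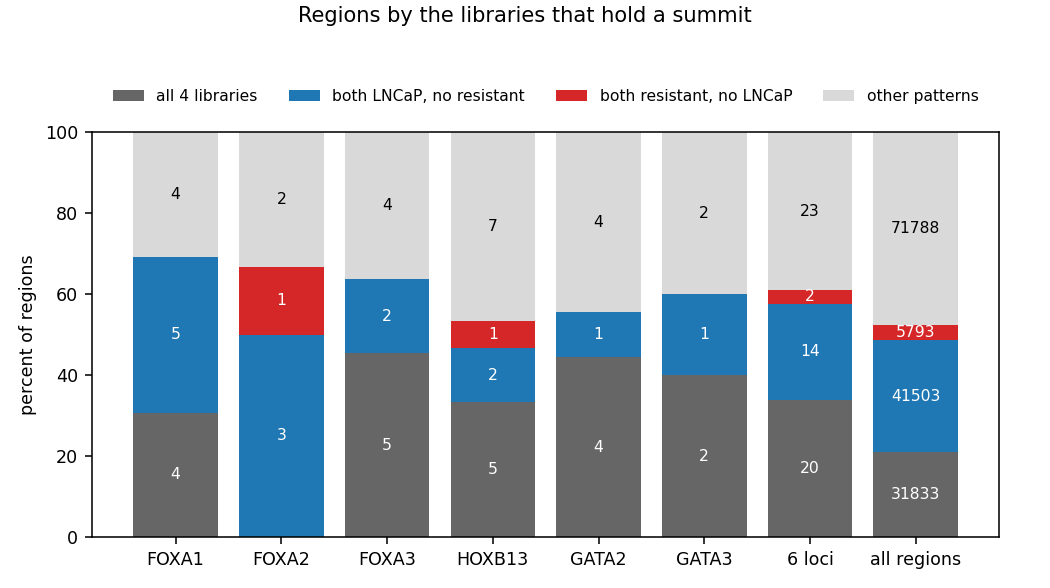
Percent of regions (vertical axis) by the libraries that hold a summit, for each gene with 50 kb on either side, for the 6 loci together and for all regions, with the number of regions inside each bar. FOXA1 had 5 LNCaP-only regions of 13, FOXA2 had no shared region, and the 6 loci held 14 LNCaP-only and 2 resistant-only regions.

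Of the 20 shared regions, 9 had a higher percentile in both resistant libraries than in either LNCaP library, 5 had a lower one and 6 overlapped. Over all 31833 shared regions 17.7% were higher and 41.8% lower by the same rule. The median change, resistant minus LNCaP, was 5.31 percentile points in the loci and -4.65 over all shared regions. Both backgrounds differ by distance to genes. Within 3 kb of an end of a protein-coding gene, 5 of 11 shared regions of the loci were higher and 2 lower. Of all 12386 shared regions there, 3166 were higher and 3180 lower, with a median of -0.046. Away from such ends, 4 of 9 in the loci were higher and 3 lower. Of all 19447 there, 2461 were higher and 10130 lower, with a median of -12.5. These shares depend on the list lengths. With equal numbers of summits, 5 of 9 shared regions of the loci were higher and 2 lower, beside 42.8% and 23.7% of all shared regions. With percentiles taken among shared regions, 12 of 20 were higher and 4 lower, beside 35.3% and 30.0%. In loci of 100 kb on either side, 13 were higher and 14 lower, with a median change of 1.10. In bulk cells, fewer cells with an open site and less opening per cell cannot be told apart. The regions of one locus share their libraries and are not replicates. A two-sided exact permutation test of 2 libraries against 2 cannot give a p below 0.333, so no difference could pass 0.05 and each one is set beside the spread between replicates.

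**Figure D2:**
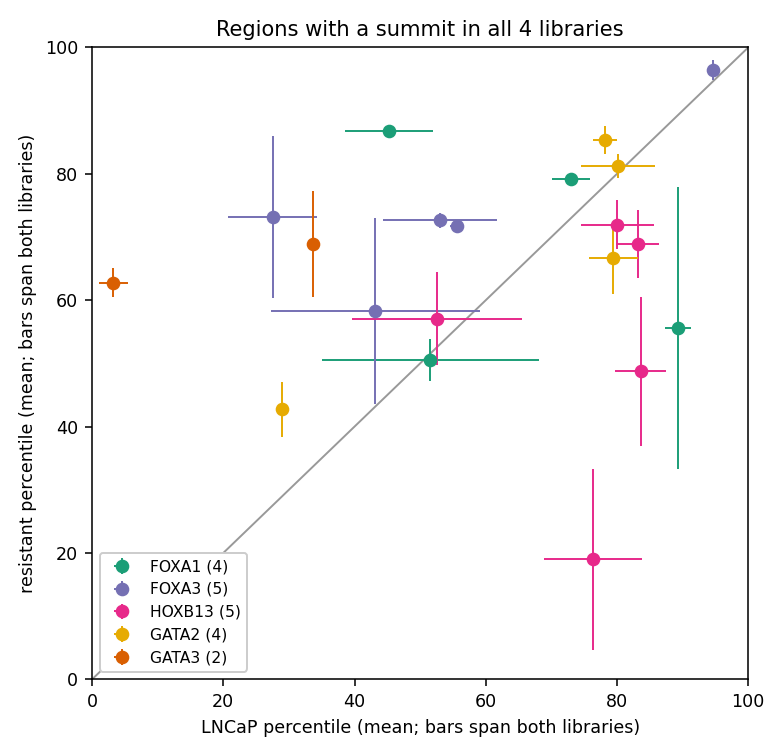
Mean percentile in LNCaP (horizontal axis) and in resistant cells (vertical axis) of the 20 shared regions, coloured by gene, with bars that span both libraries of a group and a diagonal of equal values. Both GATA3 regions lie above the diagonal, and 4 of the 5 HOXB13 regions lie below it.

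At the start of the genes, the strongest summit within 3 kb of the 5′ end was compared, or within 3 kb of either end for FOXA2 and HOXB13, whose strand the tables do not give. FOXA1, GATA2 and GATA3 had higher percentiles in both resistant libraries, and FOXA2 and FOXA3 overlapped. HOXB13 had lower ones, but its strongest summits lay at opposite ends of the gene in LNCaP and in resistant cells. Among 12968 protein-coding genes with such a summit in all 4 libraries, 26.0% were higher and 23.9% lower in resistant cells, and the median change was 0.077 percentile points. The typical gene start stood at percentile 85.0 in LNCaP and 84.7 in resistant cells.

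**Figure D3:**
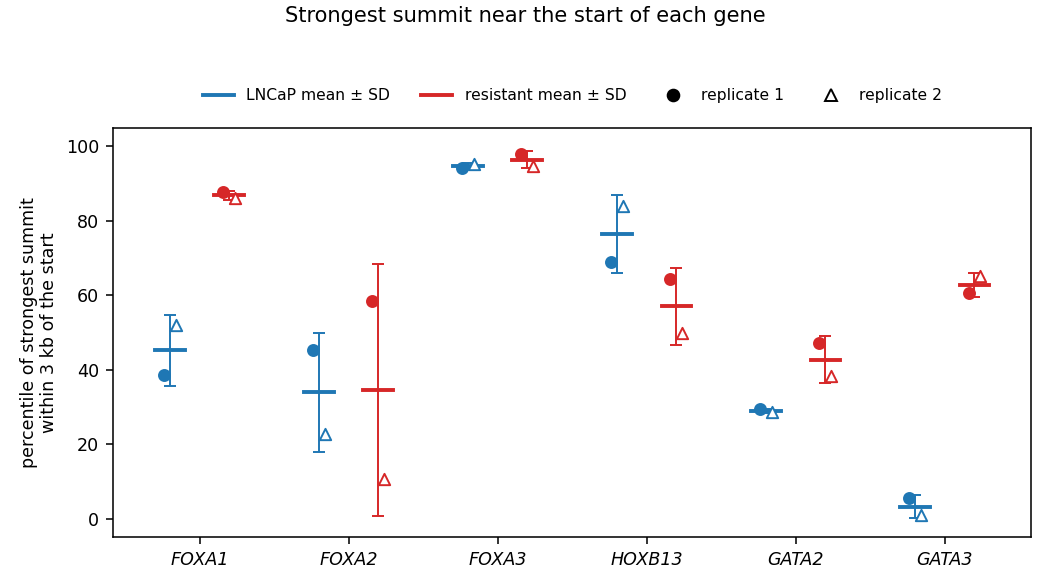
Percentile of the strongest summit within 3 kb of the start of each gene (vertical axis) in LNCaP (blue) and resistant (red) libraries, with points for replicates 1 and 2, and a bar with whiskers for the mean ± SD of 2 libraries. For FOXA2 and HOXB13 either gene end was used. The HOXB13 points of LNCaP and of resistant cells come from opposite ends and are not the same site. FOXA1 and GATA3 are separated by 41.5 and 59.6 points, whereas the FOXA2 libraries overlap.

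GATA3 occupies chr10:8045333-8075198 on the plus strand. The summit at its first start, between 18 bp before and 155 bp after the first base, stood at percentiles 5.42 and 0.998 in LNCaP and at 60.5 and 65.1 in resistant cells. Among the weakest calls in both LNCaP libraries, this site was in the upper part of the list in both resistant ones, and the groups did not overlap. The means were 3.21 ± 3.12 and 62.8 ± 3.28 (SD, n = 2), a difference of 59.6 points with a pooled SD of 3.20 and an exact permutation p of 0.333. That change was larger than in 99.8% of the 12968 genes, although the resistant level was still below that of the typical gene start. The deposited scores, which also depend on depth, were 3.53 and 2.41 in LNCaP and 22.3 and 17.6 in resistant cells. A second shared region, chr10:8053210-8053804, lay 8.2 kb inside the gene, around the internal start and 56 bp from an end of the antisense gene GATA3-AS1. It stood at 33.8 and 33.5 in LNCaP and at 77.2 and 60.5 in resistant cells, again without overlap, a difference of 35.2 points with a pooled SD of 8.36. Its summits in all 4 libraries fell inside the 250 bases with 5 GC boxes. The only LNCaP-only region of the locus lay 32.6 kb before the start, inside TAF3, at 44.6 and 40.3. Resistant replicate 1 alone had further summits 7.3 kb before the start, at percentile 17.8, and 5.5 kb inside the gene, at 36.7.

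FOXA1 occupies chr14:37589552-37595249 on the minus strand. The strongest summit near its start lay 919 bp before the gene, in the region chr14:37595798-37596478, which is also 539 bp inside the divergent neighbour TTC6. It stood at 38.5 and 52.0 in LNCaP and at 87.6 and 86.0 in resistant cells. Both resistant libraries lay far above both LNCaP libraries, with means of 45.2 ± 9.53 and 86.8 ± 1.12 (SD, n = 2). The difference of 41.5 points, beside a pooled SD of 6.78 and an exact permutation p of 0.333, was larger than in 98.7% of genes. Resistant cells thereby had a level close to that of the typical gene start, and LNCaP cells one below it. Whether the site belongs to FOXA1 or TTC6 cannot be told from summits. A separate call at the first base of FOXA1, inside the printed stretch or next to it, was made in LNCaP replicate 2 at 39.0 and in the resistant libraries at 52.2 and 0.688, and not in LNCaP replicate 1.

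Over the whole FOXA1 locus, its start included, LNCaP-only regions made up 5 of 13 regions, or 38.5%, beside 27.5% of all regions. All 5 lay away from protein-coding gene ends. There 30.8% of all regions were LNCaP-only, and the share of the locus was not counted for such regions alone. Of the 5 LNCaP-only regions, 4 lay inside TTC6. The region 46.1 kb before FOXA1, chr14:37641081-37641581, stood at 77.1 and 62.6 in the LNCaP libraries. Those at 21.2 kb and 28.4 kb, chr14:37616183-37616745 and chr14:37623378-37623948, stood at 72.8 and 65.2 and at 69.7 and 61.5. No resistant library had a summit at any of the 3 sites. The mean LNCaP percentiles of these 3 regions were above those of 79.3%, 78.3% and 74.7% of all LNCaP-only regions. The other LNCaP-only regions lay 5.9 kb before the gene, at 45.1 and 53.5, and 23.9 kb into the downstream side, at 45.5 and 34.5. A shared region 48.2 kb downstream, inside MIPOL1, stood at 91.3 and 87.3 in LNCaP and at 77.9 and 33.3 in resistant cells. It was lower in both resistant libraries, and its difference was -33.7 points with a pooled SD of 22.4, which without resistant replicate 2 was -11.4. A region 28.2 kb downstream was slightly higher in resistant cells, at 75.9 and 70.0 against 78.7 and 79.6. In all, the FOXA1 locus had 12 and 11 summits in LNCaP and 6 and 5 in resistant cells. Per 10000 summits of the library these were 1.02 and 1.02 against 0.847 and 1.10, which overlapped.

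When each list was shortened to its 45618 highest scores, to equal the smallest library, 4 regions of the 6 loci were LNCaP-only and 11 resistant-only, the reverse of the full lists. Over all regions the shares under that setting were 17.1% and 14.9%. Of the 14 LNCaP-only regions of the full lists, 3 kept that pattern, and all 3 were the FOXA1 regions at 21.2, 28.4 and 46.1 kb. Such regions had no resistant summit to lose, so keeping the pattern depended on their LNCaP percentiles alone. It adds nothing about resistant cells, and the share of all LNCaP-only regions that kept it was not counted. The fourth LNCaP-only region at this setting was a HOXB13 region at 17.2 kb whose weak summit in resistant replicate 1 left the shortened list. The resistant-only regions included both shared regions of GATA3 and the region at the FOXA1 start. Under the same setting FOXA1, FOXA2, GATA2 and GATA3 had no summit near the start in either LNCaP library and one in both resistant libraries. The share of all genes with that pattern was not counted. Gene starts in general moved the same way, with a median change of 10.9 over 10569 genes at this setting and 0.077 in the full lists. FOXA2, whose groups overlapped in the full lists, stood at 35.5 and 10.6 in the resistant libraries there.

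**Figure D4:**
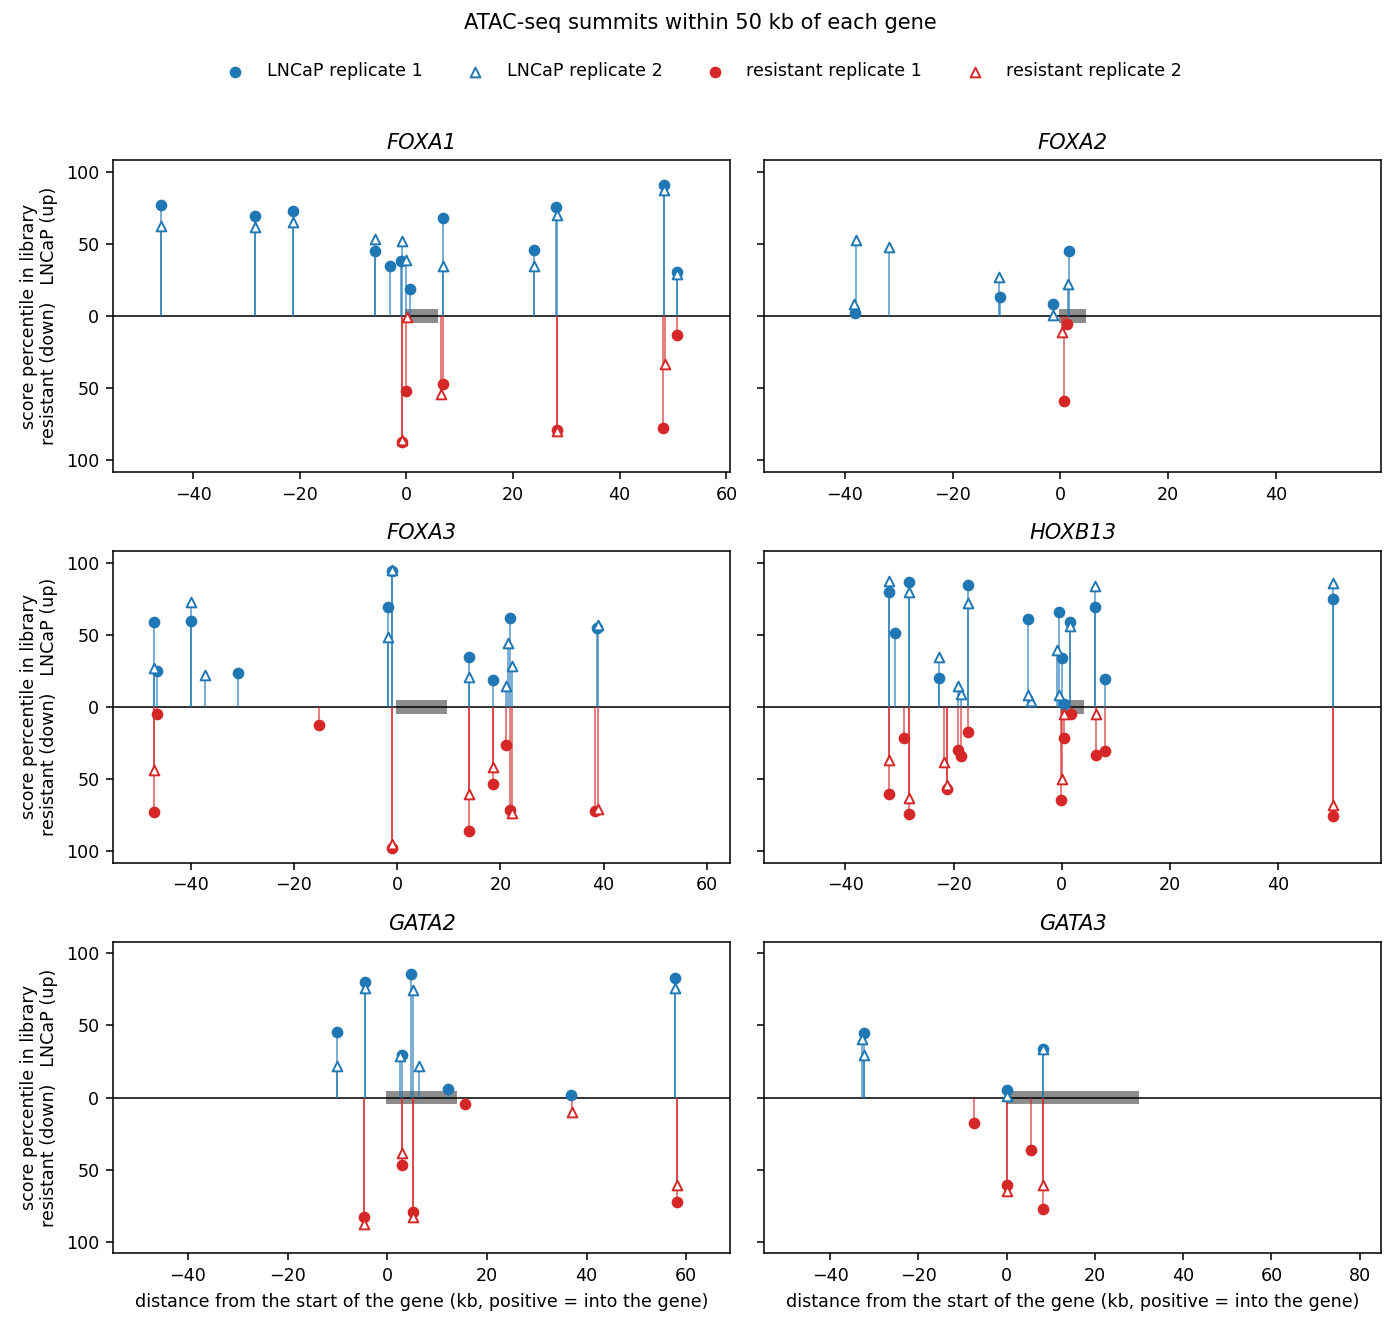
Percentile of every summit in the 6 loci, drawn up for LNCaP (blue) and down for resistant libraries (red), against the distance in kb from the start of the gene, positive into the gene (grey box). For FOXA2 and HOXB13 the distance is from the end with the higher coordinate. Upstream of FOXA1 the 3 tall blue sites at 21.2, 28.4 and 46.1 kb have no red partner, whereas the site at the FOXA1 start is taller in red.

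FOXA3 occupies chr19:45864326-45873797 on the plus strand. The strongest summit near it lay 1020 bp before its start, 159 bp before the start of SYMPK, and stood at 94.2 and 95.2 in LNCaP and at 98.0 and 94.8 in resistant cells. These were the highest values of any region in the 6 loci, and the groups overlapped. The means were 94.7 ± 0.706 and 96.4 ± 2.25 (SD, n = 2), a difference of 1.71 points that is about as large as the pooled SD of 1.67 (exact permutation p = 0.667). It lies within the printed SYMPK stretch, and no library had a summit within 1 kb of the FOXA3 start. Downstream of FOXA3, 3 shared regions were higher in both resistant libraries. The one 13.9 kb past the start, chr19:45877989-45878529, stood at 34.3 and 20.8 in LNCaP and at 85.9 and 60.4 in resistant cells, a difference of 45.6 points with a pooled SD of 14.5. FOXA3 was the nearest gene to it, its end being 4456 bp away. The others lay at ends of IRF2BP1, a transcriptional corepressor gene, and of MYPOP. They stood at 61.7 and 44.3 against 71.5 and 73.9, and at 54.6 and 56.6 against 72.5 and 70.9. The FOXA3 locus had 2 LNCaP-only regions, both inside SYMPK, of which that 40 kb before FOXA3 stood at 59.7 and 72.4 and that 1.8 kb before it at 69.0 and 48.6.

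FOXA2 occupies chr20:22580998-22585490, and its locus was the sparsest in resistant cells, with 4 and 6 summits in LNCaP and 2 and 1 in the resistant libraries. None of its 6 regions was shared. The strongest summit near either end stood at 45.3 and 22.6 in LNCaP and at 58.5 and 10.6 in resistant cells. The groups overlapped, with a difference of 0.62 points beside a pooled SD of 26.5 (exact permutation p = 1). The strongest summits lay at different positions. Those of the resistant libraries lay 701 and 318 bp from the end with the higher coordinate, in the resistant-only region chr20:22584539-22585422, and those of LNCaP lay 1516 and 1313 bp from that end. A weaker summit of resistant replicate 1, at percentile 5.57, lay with the LNCaP summits, 1286 bp from the end. These neighbouring regions were joined with summits 500 bp to either side, which left no resistant-only region. The 3 LNCaP-only regions of the locus, 1.4, 11.4 and 38 kb beyond that end, were weak, with mean LNCaP percentiles of 4.83, 20.2 and 27.4. Of the resistant summits in the locus, only the one in replicate 1 stood above percentile 50.

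HOXB13 occupies chr17:48724763-48728750. The region at the end with the higher coordinate, chr17:48728093-48729809, stood at 65.6 and 39.6 in LNCaP and at 64.4 and 49.7 in resistant cells. The groups overlapped, and the difference of 4.48 points was below the pooled SD of 14.9. The strongest LNCaP summits within 3 kb of either end were on the other side. The median summit of their region over the 4 libraries lay inside PRAC2, 20 bp from an end of the prostate gene PRAC1. That region, chr17:48722212-48722866, stood at 68.9 and 83.8 in LNCaP and at 33.3 and 4.63 in resistant cells, a difference of -57.4 points with a pooled SD of 16.2, and this change was more negative than in all but 2.25% of shared regions. The rule over either end thus compared different sites, at 68.9 and 83.8 against 64.4 and 49.7, a difference of -19.3 points (exact permutation p = 0.333). Counted from the end with the higher coordinate alone, the difference was -3.80 and the groups overlapped. They also overlapped with scores of at least 10 and with percentiles among shared regions.

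Far from the gene, between HOXB13 and TTLL6, LNCaP cells had strong summits that ranked lower in resistant cells. Of all shared regions 41.8% were lower as well. Changes as negative as those at 31.9 kb and 28.2 kb, or more so, were found in 11.8% and 33.3% of all shared regions. The region at 31.9 kb, chr17:48760378-48760901, stood at 79.7 and 87.5 in LNCaP and at 60.5 and 36.9 in resistant cells, a difference of -34.9 points with a pooled SD of 12.4. That at 28.2 kb stood at 86.4 and 79.9 against 74.2 and 63.5, and with equal numbers of summits its difference of -14.3 became 2.81. A region at 17.2 kb was called in both LNCaP libraries, at 84.3 and 72.2, and in resistant replicate 1 alone, at 17.7. A resistant-only region lay between these sites, 21.3 kb from the gene at chr17:48749714-48750768, and stood at 57.0 and 54.1. It was above 70.5% of all resistant-only regions in mean resistant percentile. Of the 5 shared regions of the HOXB13 locus 0 were higher and 3 lower in both resistant libraries, beside 17.7% and 41.8% of all shared regions. The 2 LNCaP-only regions of the locus, at 6.3 kb and 22.6 kb, stood at 60.9 and 8.28 and at 20.1 and 34.6.

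GATA2 occupies chr3:128479422-128493201 on the minus strand, and the antisense gene GATA2-AS1 overlaps it. No library had a summit within 1 kb of its first start. The strongest summit within 3 kb lay inside the gene, between 2586 and 2993 bp from the start, and stood at 29.4 and 28.6 in LNCaP and at 47.1 and 38.3 in resistant cells. In the full lists both resistant libraries were higher, by 13.7 points between means of 29.0 ± 0.591 and 42.7 ± 6.23 (SD, n = 2), with a pooled SD of 4.43 and an exact permutation p of 0.333. With scores of at least 10 only resistant replicate 1 kept a summit there, and the groups were no longer separated. Stronger calls flanked it. The region 5.2 kb inside the gene, chr3:128487713-128488606, overlaps the 250 bases before a second RefSeq start and stood at 85.7 and 74.5 in LNCaP and at 79.4 and 83.1 in resistant cells. These ranges overlapped, with a difference of 1.10 points. The region 4.6 kb before the gene, inside GATA2-AS1, had the highest mean of the locus over the 4 libraries, at 80.0 and 76.3 against 83.1 and 87.6. It was higher in both resistant libraries by 7.20 points, with a pooled SD of 2.94. A region at 57.9 kb on the downstream side was lower, at 83.1 and 75.7 against 72.2 and 60.9, and with equal numbers of summits its difference of -12.8 became 9.12. The only LNCaP-only region, 10.1 kb before the gene, stood at 45.2 and 21.9.

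The loci also differed in how many summits they held in each cell type. On the log2 scale, with 1 added to each mean number, the ratio of resistant to LNCaP summits was -1.26 for FOXA2, -0.94 for FOXA1, -0.37 for FOXA3, -0.32 for GATA2, -0.28 for HOXB13 and -0.17 for GATA3. The median over 19556 protein-coding genes was -0.58. FOXA2 and FOXA1 lay at percentiles 12.9 and 26.0 of these genes and GATA3 at 81.3, so FOXA1 and FOXA2 stood below the median ratio and the other 4 above it. Per 10000 summits of the library, FOXA3, HOXB13, GATA2 and GATA3 had more summits in both resistant libraries than in either LNCaP library, and FOXA2 had fewer. The share of all protein-coding genes with either pattern was not counted, so neither can be called particular to these loci. These numbers are small, since GATA3 had 3 and 4 summits in LNCaP and 4 and 2 in resistant cells, and GATA2 had 7 and 6 against 5 and 5.

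Other genes of the luminal programme were compared at their starts in the same way. Of 8 listed genes, 7 had a summit in every library and KLF5 had none, beside 12968 of all 20037 protein-coding genes with one in every library. GRHL2, an epithelial pioneer factor, was higher in both resistant libraries, at 93.2 and 91.2 in LNCaP against 96.9 and 99.2. SPDEF, EHF and XBP1 were lower, so that 1 of the 7 was higher and 3 lower, beside 26.0% and 23.9% of the 12968 genes with a summit in every library. ELF3, CREB3L4 and TLE3 overlapped. The median change over the 7 genes was -0.40 points. EHF, an epithelial ETS factor, had the largest change, from 89.9 and 80.1 in LNCaP to 51.1 and 24.8 in resistant cells. SPDEF, another ETS factor of luminal cells, stood at 72.9 and 80.8 against 63.1 and 61.1.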

How the data were processed

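ATAC-seq was performed on 2 libraries each of LNCaP and LNCaP-resistance cells. For each library the authors deposited a summit list, whose score is a −log10 p-value or q-value (which of these is not stated) and starts just above the value for 0.05. The submitters' processing notes list Bowtie2 2.2.5, SAMtools 1.6, MACS2 2.2.6, deepTools 3.5.2, HOMER 4.11 and the build hg38, with no role or order. Peaks were called per library, so a deeper library can list more and weaker summits. Depth, filters, and any shift of reads for the transposase are not given in the sources used here.

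Summits on the main chromosomes were ranked within their library, widened by 250 bp on either side and merged, using Python 3.11.15, pandas 2.3.3, numpy 2.4.6 and scipy 1.17.1. Genes and promoters came from RefSeq tables of GRCh38.p14, which give gene spans without exons. A region belonged to a locus when its midpoint lay in the gene body or within 50 kb, and a gene without a summit near its start was given percentile 0. Groups were compared by whether their values overlapped, with a two-sided exact permutation test for single values. Some genes and a motif of the planned lists are not reported here. The members and gene lists were chosen with earlier results of these data known. The regions named were, per locus, that at the start, the highest, the 3 highest LNCaP-only, the resistant-only, and the 2 largest changes in each direction, plus further regions chosen after their values were seen. The 2 genes most alike at the start were named by Euclidean distance. Alternatives were summits widened by 100 or 500 bp, only scores from 10 upwards, lists shortened to 45618 summits, membership by 1 library, 20 and 100 kb, 1 kb, either gene end, percentiles among shared regions, leaving out each library and the replicate block. The labels enter the repeat numbers under batch in both groups, so the numbers were taken to pair the libraries. The deviations of libraries with the same number correlated at r = -0.012 over 31833 shared regions. The end with the higher coordinate for FOXA2 and HOXB13, and the change of each named region under each setting, were added after seeing the data. On simulated lists, 100% of 6000 planted regions were given their class.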

Additional observations from a re-analysis of the deposited data

How the results depend on the processing

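The higher percentiles of FOXA1 and GATA3 near the start in resistant cells kept their direction, without overlap of the groups, under every alternative run for the starts. Several alternatives could not have changed this. Leaving out a library cannot make separated groups overlap, and within 1 kb the same summits were compared. With equal numbers of summits the LNCaP summits of both genes left the shortened lists, which gave both LNCaP libraries percentile 0. The replicate block was not applied to the starts. With each library left out in turn the differences ranged from 34.8 to 48.3 for FOXA1, 57.3 to 61.9 for GATA3, 9.32 to 18.1 for GATA2, 0.121 to 3.31 for FOXA3, -26.8 to -11.9 for HOXB13 and -23.3 to 24.6 for FOXA2. LNCaP-only regions then numbered 14 to 19, resistant-only regions 2 to 7 (7 without LNCaP-resistance replicate 2), shared regions 20 to 24, higher ones 9 to 13, lower ones 6 to 9 (8 without LNCaP replicate 2 and 9 without LNCaP-resistance replicate 2), and the median change 1.29 to 9.09. Over all regions the LNCaP-only share was then 28.6% to 46.9% and the resistant-only share 5.23% to 12.0%. Of all shared regions 19.9% to 29.8% were then higher and 47.7% to 63.9% lower. With the replicate block, 10 shared regions were higher and 5 lower within both pairs, beside 23.3% and 49.3% of all shared regions. The block was applied to shared regions alone, so no other call could change. Windows of 100 bp gave 13 shared regions, beside 27233 of all 167426, and windows of 500 bp no resistant-only one (0), beside 3.60% of all regions. A score of at least 10 gave 8 LNCaP-only, 4 resistant-only and 8 shared regions, 3 higher and 0 lower, and start differences of 74.6 for FOXA1, 3.59 for FOXA3, -30.4 for HOXB13 and 37.1 for GATA3, where the HOXB13 and GATA2 groups overlapped and so lost their separation. Equal numbers of summits gave 4, 11 and 9 regions, 5 higher and 2 lower beside 42.8% and 23.7% of all shared regions, and start differences of 83.3 for FOXA1, 8.99 for FOXA3, 28.1 for GATA2, 51.8 for GATA3 and, reversed, 6.15 for HOXB13. The median over 10569 genes was 10.9 there, above the FOXA3 and HOXB13 values. FOXA2 was separated at that setting, by 23.1. The HOXB13 region at 48756951 (2.81) and the GATA2 region at 128435285 (9.12) also reversed there, where the median over all shared regions was 4.61 in place of -4.65. Membership by at least 1 library gave 23 LNCaP-only and 7 resistant-only regions, beside 52.0% and 12.9% of all regions. It gave 9 lower ones, beside 48.7% of all shared regions. Windows of 20 kb gave 7, 1 and 12 regions, 1 lower, and a median of 10.5, and those of 100 kb gave 33, 9 and 37 regions with 13 higher, 14 lower and a median of 1.10. The shares over all regions do not depend on this width and stayed at 27.5%, 3.84% and 21.1%. Of all shared regions 17.7% were higher and 41.8% lower. Percentiles among shared regions gave a median of 15.0 and start differences of 62.6 for FOXA1, 9.22 for FOXA3 and 41.9 for GATA3, and the HOXB13 groups overlapped (-12.0). Within 1 kb of the start the differences were 34.6 for FOXA2, 0 for FOXA3 and GATA2, which had no summit there, and, reversed, 4.48 for HOXB13. Either gene end gave 26.8 for FOXA1, and the end with the higher coordinate -3.80 for HOXB13. Apart from these constructions the cause was not tested. Unknown depth limits every absence of a summit.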

Other observations

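Among the other GATA genes, which encode zinc finger factors of the same family, GATA6 and TRPS1 had a summit near the start in all 4 libraries. GATA6 stood at 88.2 and 83.7 in LNCaP and at 89.7 and 80.6 in resistant cells, with overlap. TRPS1, a repressor of the family, was lower in resistant cells, at 84.2 and 87.1 against 71.1 and 70.1. GATA5 was called in LNCaP replicate 1 alone, at 14.5, and in both resistant libraries, at 39.3 and 45.4. GATA4 had 1 weak summit, in resistant replicate 1 at 5.58, and GATA1 none. Of the 2 genes with a summit in all 4 libraries, 0 were higher and 1 was lower, beside 26.0% and 23.9% of the 12968 genes.

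The genes most like each member near the start were found by Euclidean distance over the 4 libraries among 12967 genes. TTC6 and SYMPK were at distance 0 from FOXA1 and FOXA3 because they share the site. Beyond them, SWAP70 was closest to FOXA1 (2.01) and IARS1 to FOXA3 (0.836). GATA3 was farther from its nearest genes, TGFBR3L (10.5) and DIRAS3 (10.8), both of which were weak in LNCaP and stronger in resistant cells. GATA2 was nearest to ADCY8 (6.62) and RASGRP2 (6.73), HOXB13 to ARCN1 (4.36) and SYT7 (5.10), and FOXA2 to PKHD1 (10.4) and CRTC1 (11.2). Distances are over 4 values only, and the median distance to all genes ranged from 25.4 for FOXA3 to 120.3 for GATA3.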
